A study of Rattus norvegicus with 24 samples.

Results

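The 55 genes described here encode proteins of the synaptic vesicle and of regulated exocytosis, measured in whole rat brain after repeated inhaled anaesthesia. They are the genes on the array whose symbol begins with Syt, Stx, Vamp, Snap, Rab3, Cplx or Sv2, together with Syn1, Syn2, Syp, Nsf, Napa, Unc13a, Unc13b, Rims1, Rph3a, Amph and Dnm1, and they make up 55 of the 4736 genes that had a probe set with a single symbol. The 55 genes had 78 probe sets in all. Each gene is represented by the one with the highest mean signal, and all 55 passed the filter on dim signals. The prefixes were applied to the letter, so Rab33b, Rab34 and Rab38 are included although they do not belong to the Rab3 family, and Stxbp2 and Stxbp5, which bind syntaxins, and Snap91, a clathrin assembly protein, are included although they are not SNARE proteins.

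Total RNA was hybridised to 24 single-colour arrays, 1 per sample. Of these, 3 arrays came after 5 exposures to 0.8% halothane over 2.5 days, 3 after 10 exposures to 0.8% halothane over 5 days, 3 after 5 exposures to 1.0% isoflurane over 2.5 days and 3 after 10 exposures to 1.0% isoflurane over 5 days. Every exposure lasted 90 min, with 2 a day and 3 h between them. The 12 controls also received halothane, but only for 3 min, and were then perfused with ice-cold saline. No sham course is described for the controls. Strain, age, sex and the delay between the last exposure and collection were not stated in the labels. Whether arrays of a group represent separate animals is not stated either, and p-values then reflect only the variation among these samples, some of which may be technical. In whole brain, fewer cells of a type and less RNA per cell cannot be told apart.

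A neuron releases transmitter when a loaded vesicle fuses with the plasma membrane. The vesicle protein synaptobrevin (Vamp1, Vamp2) zips together with the plasma membrane proteins syntaxin (Stx1a) and Snap25 into a SNARE complex, synaptotagmins sense the calcium that triggers fusion, and complexins hold the assembled complex ready. Priming factors such as Unc13a and Rims1 and the small GTPases of the Rab3 family prepare vesicles beforehand, Nsf with its adaptor Napa takes spent complexes apart, and dynamin and amphiphysin retrieve the membrane. The release machinery, and syntaxin in particular, has long been studied as a presynaptic target of volatile anaesthetics.

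The deposited values are array signals on a linear scale, which compare arrays for 1 probe set and not probe sets with each other. Their 2% trimmed mean lay between 150.1 and 150.2 on every array, and correlations between arrays ran from 0.945 to 0.983. Signals under 16.5, the 25th percentile of the table, were set to that floor before log2 was taken, so differences of dim genes are understated. Of the 55 genes, 41 lay above the floor on all 24 arrays and 30 lay above the table's median of 58.9 on all of them. As a check of the tissue, 11 of the 12 neuron markers on the array were above the floor on every control, and 3 of those 11 (Snap25, Syn1 and Syt1) are also among the genes described here. The exception was Slc17a7, a vesicular glutamate transporter, which was above it on no control. All 8 astrocyte and all 7 oligodendrocyte markers were above the floor on every control. The 5 blood markers tested all lay below control after 5 halothane, 10 halothane and 10 isoflurane exposures, with median log2 differences of -0.20, -0.49 and -0.40, and their median was -0.06 after 5 isoflurane exposures. All 7 oligodendrocyte markers lay below control after 10 halothane exposures, with a median of -0.22, and their median was -0.00 after 10 isoflurane exposures. None of these markers passed the test. Single arrays differed: after 10 isoflurane exposures the per-array blood medians ran from -0.75 to 0.04, against -0.33 to 0.32 in controls. Choroid plexus medians ran from 0.05 to 0.58 after 10 halothane exposures and from 0.10 to 0.35 after 5 isoflurane exposures, against -0.26 to 0.25 in controls. They ran from -0.27 to 0.03 after 5 halothane exposures and from -0.12 to 0.24 after 10 isoflurane exposures. Pituitary medians ran from -0.39 to 1.07 after 10 isoflurane exposures, against -0.16 to 0.33 in controls. The part of these cell types in the values below was not tested. Spike-in controls split the arrays into 15 with low and 9 with high levels, and the high ones were 5 controls and replicate 3 of each exposed group.

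None of the 55 genes passed the test in any of the 10 comparisons made with limma at an adjusted p under 0.05 over 7389 probe sets. The share of all probe sets that passed was itself small, at 0.0135% after 5 halothane exposures, 0.0406% after 10 halothane exposures, and 0% after 5 and after 10 isoflurane exposures and for the mean of the 4 exposed groups, each against control. At an unadjusted p under 0.05 there were 3 higher and 1 lower genes after 5 halothane exposures (3.53% of all probe sets), 0 and 2 after 10 halothane exposures (7.52%), 0 and 1 after 5 isoflurane exposures (2.14%) and 2 and 2 after 10 isoflurane exposures (9.05%). For the mean of the 4 exposed groups there were 2 and 1 (8.44%). The share of the 55 genes was above that of all probe sets after 5 halothane exposures and below it in the other comparisons with control.

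As a set the genes lay close to control. Their median log2 difference from control was -0.03 after 5 halothane exposures, where that of all probe sets was -0.01, and 30 of the 55 genes lay below control (54.5%, against 51.8% of all probe sets). It was -0.05 after 10 halothane exposures, where that of all probe sets was -0.03, with 33 genes below control (60.0%, against 56.2% of all probe sets). After 5 isoflurane exposures the median was 0.01, as for all probe sets, with 27 genes below control (49.1%, against 48.4% of all probe sets). After 10 isoflurane exposures it was -0.05, with 34 genes below control (61.8%, against 50.5% of all probe sets). For the mean of the 4 exposed groups 35 genes lay below control (63.6%, against 53.1% of all probe sets), with a median of -0.04. No test of these shares was made. The per-array medians of the 55 genes ran from -0.07 to 0.08 in controls, and 9 of the 12 exposed arrays lay inside that range. By role the counts were uneven in places: of the 7 regulators, priming and disassembly factors, 6, 5, 6 and 6 lay below control in the 4 groups, and of the 6 Rab3 genes and partners 5 lay below it after 10 isoflurane exposures. The 3 retrieval genes all lay above control after 5 isoflurane exposures.

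**Figure D1:**
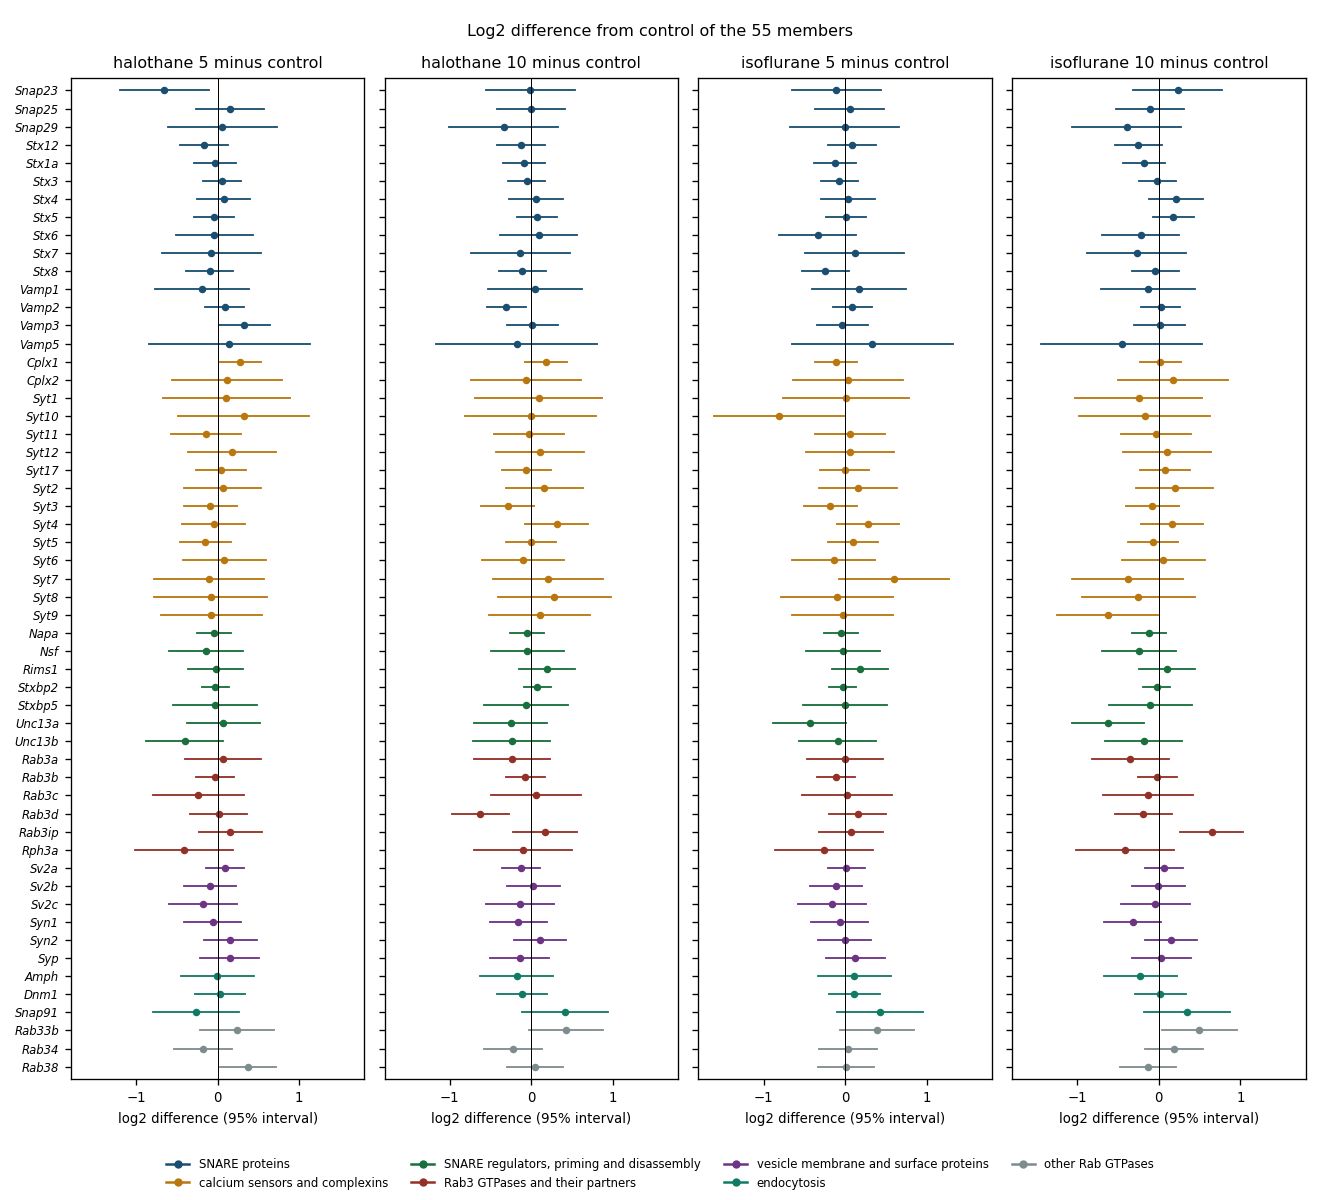
Log2 difference from control (x axis, log2 units) of each of the 55 genes, 1 row per gene and 1 panel per exposed group, with points for the estimate, lines for its 95% interval and colours for the role. Points of every role lie on both sides of 0 in at least 1 exposed group, and the median over the 55 genes lies between -0.05 and 0.01 in all 4 panels.

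For genes above the floor on every array, the data bound how large a difference could have been missed. For 10 core release genes (Snap25, Stx1a, Vamp2, Syt1, Nsf, Syn1, Syp, Rab3a, Cplx1 and Cplx2) the 95% interval of the difference from control lay within 1 log2 unit for all 10 after 5 or 10 halothane exposures and after 5 isoflurane exposures, and for 9 after 10 isoflurane exposures. The exception was Syt1, whose interval reached -1.03. For the mean of the 4 exposed groups all 10 intervals lay within 1.5-fold either way, as did those of 49 of the 55 genes. In single groups 29 to 35 of the 55 genes had intervals within 1.5-fold. The counts over all 55 genes include the 14 that were not above the floor on every array. For those 14 the floor can narrow the interval, so their intervals do not bound a missed difference.

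Among the SNARE proteins, Snap25, the plasma membrane SNARE of neurons, had 3384, 3433 and 2679 signal units after 5 halothane exposures and 3421, 3517 and 1854 after 10. It had 3678, 3198 and 2144 units after 5 isoflurane exposures and 2794, 3115 and 2051 after 10, and controls ran from 1943 to 3693 with a median of 2947. The lowest array of each exposed group was its replicate 3, and all groups overlapped control. Its log2 differences were 0.16, -0.00, 0.05 and -0.11 in that order of groups, with SE 0.20 in each. The array carried 3 further Snap25 probe sets, whose differences after 10 isoflurane exposures were -0.10, -0.03 and -0.51.

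Stx1a, the syntaxin of the release site, had 1051, 838 and 928 units after 5 halothane exposures and 1098, 888 and 743 after 10. It had 918, 992 and 749 units after 5 isoflurane exposures and 1044, 823 and 699 after 10, with controls from 839 to 1218 and a median of 927. All groups overlapped control, and the log2 differences of -0.03, -0.09, -0.12 and -0.18 did not pass.

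Vamp2, the main synaptobrevin of brain vesicles, had 1844, 2537 and 2110 units after 5 halothane exposures, 1697, 1560 and 1639 after 10, 2241, 2192 and 2013 after 5 isoflurane exposures and 1988, 1943 and 2253 after 10, with controls from 1709 to 2845 and a median of 1990. The 3 arrays of 10 halothane exposures lay below every control, which was so for 1 of the 55 genes and 0.474% of all probe sets in that comparison. The log2 difference was -0.31 ± 0.12 (SE; 95% interval -0.55 to -0.07), with an adjusted p of 0.516 from limma, so it did not pass. A second Vamp2 probe set had -0.13 there. In the other 3 groups the difference lay between 0.02 and 0.09.

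Vamp1, the other synaptobrevin of synaptic vesicles, averaged 268 units after 5 halothane exposures and 312 after 10. It averaged 344 units after 5 isoflurane exposures and 285 after 10, against 312 in controls. The remaining SNARE genes mostly serve other membranes or other cells. Vamp3, found on recycling endosomes of most cells, was at 0.33 after 5 halothane exposures, and Snap23, the relative of Snap25 outside neurons, was at -0.65 there (adjusted p of 1 from limma). Snap23 had 24, 17 and 6.20 units, with the last below the floor, against controls from 15.4 to 51.3, and its other probe set was at 0.32. Of the 15 SNARE genes, 8 lay below control after 5 halothane exposures, 10 after 10 halothane exposures, 7 after 5 isoflurane exposures and 10 after 10 isoflurane exposures. The medians of the SNARE genes were -0.03, -0.06, 0.01 and -0.11 in that order of groups, and none of the 15 passed.

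**Figure D2:**
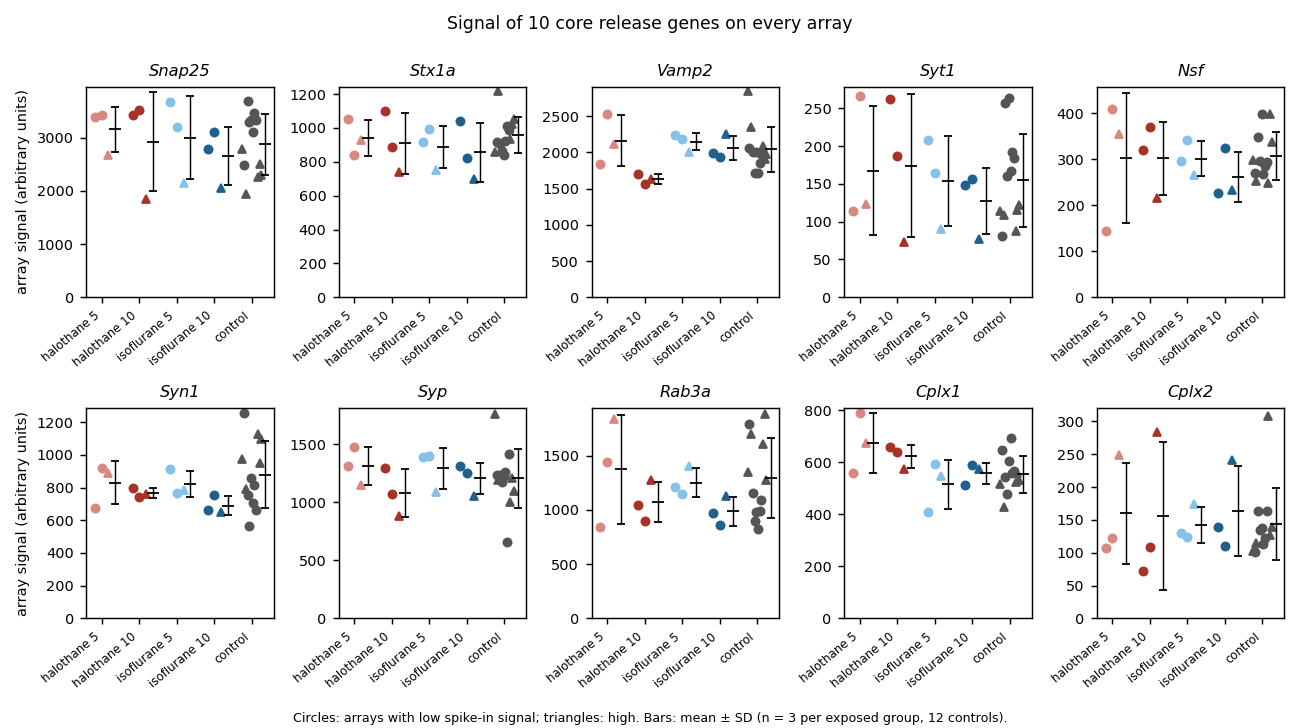
Array signal (y axis, arbitrary units, linear from 0) of 10 core release genes by group, with the 4 exposed groups left of control, 1 point per array (triangles for high and circles for low spike-in level) and bars for the mean ± SD (n = 3 per exposed group, 12 controls). Exposed arrays overlap the controls for every gene, except Vamp2 after 10 halothane exposures, where all 3 lie below the 12 controls.

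Of the calcium sensors and complexins, Syt1, the sensor for fast synchronous release, had 114, 266 and 123 units after 5 halothane exposures, 262, 187 and 73.4 after 10, 208, 164 and 89.6 after 5 isoflurane exposures and 148, 157 and 76.7 after 10, with controls from 80.8 to 264 and a median of 142. Its differences of 0.10, 0.09, 0.01 and -0.25 had an SE of 0.38 each, the widest of the 10 core genes in this fit. Without replicate 3, the array of that group with high spike-ins, the difference after 10 isoflurane exposures was 0.08. That fit kept the controls with high spike-ins. On low spike-in arrays only, in exposed and control groups alike, the difference was -0.21.

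Cplx1, a complexin of fast synapses, had 557, 790 and 674 units after 5 halothane exposures, 658, 640 and 574 after 10, 409, 591 and 545 after 5 isoflurane exposures and 513, 588 and 574 after 10, with controls from 429 to 694 and a median of 550. The difference after 5 halothane exposures was 0.28 (95% interval 0.02 to 0.53) and did not pass, and it was 0.16 without replicate 2. Cplx2, its close relative, had 107, 123 and 249 units after 5 halothane exposures and 72.9, 109 and 284 after 10. It had 130, 124 and 175 units after 5 isoflurane exposures and 139, 111 and 241 after 10, with controls from 101 to 308 and a median of 131. Replicate 3 held the highest value in each exposed group. The 4 differences lay between -0.06 and 0.17, but they rested on single arrays: after 10 halothane exposures the difference was -0.62 without replicate 3 and 0.36 without replicate 1. On low spike-in arrays only, the difference after 10 halothane exposures was -0.56.

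The other synaptotagmins were mostly near control. Of the 15 genes of this class, 8 lay above control and 7 below after each of 5 halothane, 10 halothane and 5 isoflurane exposures, with class medians of 0.04, 0.09 and 0.01. After 10 isoflurane exposures 7 lay above and 8 below, with a class median of -0.04. The widest differences were those of dim genes. Syt10, a synaptotagmin that neuronal activity is known to induce, had 9.10, 10.3 and 9.20 units after 5 isoflurane exposures, all below the floor, against controls from 8.50 to 56.5, for a difference of -0.81 (adjusted p of 1 from limma) whose size the floor sets. Syt7, a sensor of slow, asynchronous release, had 69.7, 52.8 and 46.2 units there against controls from 16.7 to 52.9, for a difference of 0.60 (adjusted p of 1 from limma).

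Of the priming and disassembly factors, Nsf, the ATPase that takes SNARE complexes apart, had 143, 409 and 354 units after 5 halothane exposures, 320, 370 and 215 after 10, 297, 341 and 265 after 5 isoflurane exposures and 226, 323 and 233 after 10, with controls from 248 to 398 and a median of 295. Its adaptor Napa stayed between 806 and 1111 units on the 12 exposed arrays, with controls from 885 to 1242. The differences of both lay between -0.24 and -0.02, and none passed.

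Unc13a, which primes docked vesicles, gave one of the lowest p-values among the 55 genes. It had 55.5, 94.1 and 91.8 units after 5 halothane exposures, 59.3, 61.8 and 66.7 after 10, 83.0, 34.7 and 58.4 after 5 isoflurane exposures and 38.8, 61.9 and 46.9 after 10, with controls from 57.5 to 91.2 and a median of 76.4. After 10 isoflurane exposures 2 of the 3 arrays lay below every control, and the difference was -0.62 ± 0.22 (SE; 95% interval -1.07 to -0.18; adjusted p of 0.378 from limma). After 5 isoflurane exposures it was -0.43, which became -0.10 without replicate 2 and -0.73 without replicate 1, and after 10 halothane exposures it was -0.25. Of the other priming factors, Unc13b lay between -0.40 and -0.09 in the 4 groups and Rims1, a scaffold of the active zone, between -0.03 and 0.19, and neither passed.

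The Rab3 class gave the lowest p in each agent's 10-exposure group. Rab3a, the main Rab of synaptic vesicles, had 844, 1441 and 1835 units after 5 halothane exposures, 1047, 900 and 1272 after 10, 1212, 1143 and 1401 after 5 isoflurane exposures and 972, 859 and 1129 after 10, with controls from 827 to 1888 and a median of 1215. All groups overlapped control, and the difference was widest after 10 isoflurane exposures, at -0.35 (95% interval -0.82 to 0.12).

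Rab3d, the family member best known from secretory granules of gland cells, had 72.4, 63.0 and 76.8 units after 5 halothane exposures and 46.4, 58.2 and 34.3 after 10. It had 75.2, 88.9 and 70.5 units after 5 isoflurane exposures and 63.6, 62.2 and 58.1 after 10, with controls from 51.4 to 84.7 and a median of 70.9. After 10 halothane exposures 2 of the 3 arrays lay below every control. The log2 difference was -0.63 ± 0.17 (SE; 95% interval -0.98 to -0.28), with p = 0.00111 and an adjusted p of 0.242 from limma, the lowest of the 55 genes in that comparison. After the 5 and 10 isoflurane exposures it was 0.16 and -0.19.

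Rab3ip, a Rab exchange factor named for its binding to Rab3, had 32.1, 29.8 and 25.8 units after 5 halothane exposures and 20.7, 31.8 and 38.3 after 10. It had 28.3, 29.4 and 24.9 units after 5 isoflurane exposures and 39.3, 49.9 and 34.8 after 10, with controls from 18.4 to 33.6 and a median of 26.0. The 3 arrays of 10 isoflurane exposures lay above every control, as was so for 1 of the 55 genes and 0.487% of all probe sets in that comparison. The difference was 0.65 ± 0.19 (SE; 95% interval 0.26 to 1.04; adjusted p of 0.302 from limma). In the other 3 groups it was 0.07 to 0.17. Rab3b and Rab3c lay between -0.24 and 0.06 in all 4 groups.

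**Figure D3:**
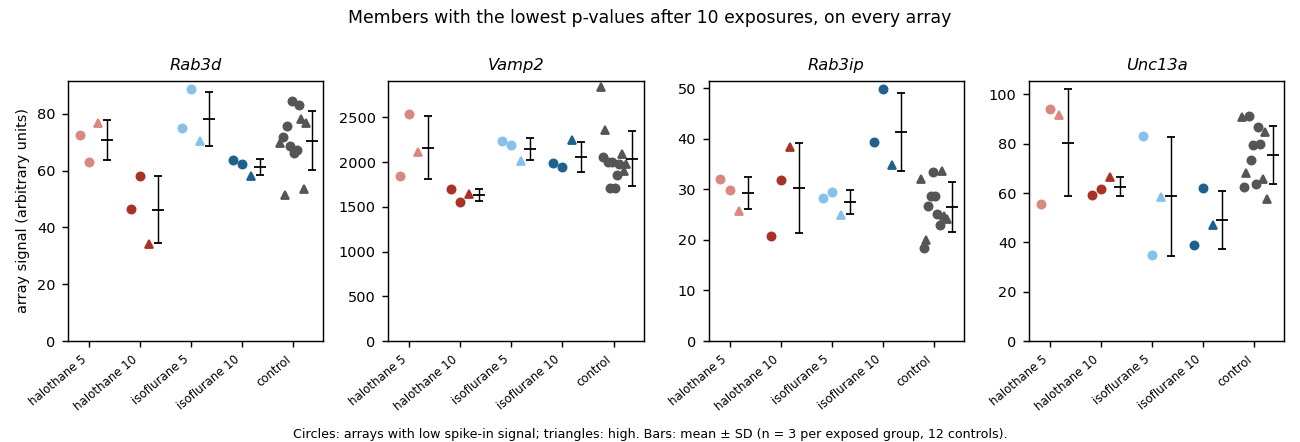
Array signal (y axis, arbitrary units, linear from 0) of Rab3d, Vamp2, Rab3ip and Unc13a by group, with the 4 exposed groups left of control, 1 point per array (triangles for high and circles for low spike-in level) and bars for the mean ± SD (n = 3 per exposed group, 12 controls). Vamp2 after 10 halothane exposures and Rab3ip after 10 isoflurane exposures lie outside all 12 controls, and none of the 4 genes passed the adjusted test.

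Among proteins of the vesicle membrane and surface, Syn1, the synapsin that tethers vesicles to the cytoskeleton, had 677, 922 and 892 units after 5 halothane exposures, 798, 743 and 759 after 10, 913, 769 and 783 after 5 isoflurane exposures and 663, 754 and 653 after 10, with controls from 563 to 1253 and a median of 838. All 4 exposed groups averaged below control on the log2 scale, at -0.06, -0.16, -0.07 and -0.32, but within the control range, and none passed. Syp, the abundant vesicle membrane protein synaptophysin, had 1312, 1475 and 1149 units after 5 halothane exposures and 1295, 1068 and 879 after 10. It had 1386, 1402 and 1086 units after 5 isoflurane exposures and 1310, 1254 and 1055 after 10, with controls from 655 to 1758 and a median of 1217. Syn2 lay between -0.01 and 0.16, and Sv2a, the vesicle glycoprotein to which levetiracetam binds, between -0.13 and 0.09.

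Of the retrieval genes, Dnm1, the neuronal dynamin that cuts endocytic vesicles free, lay between -0.12 and 0.11 in the 4 groups. Amph, the amphiphysin that brings dynamin to the vesicle neck, lay between -0.23 and 0.11. Snap91 was at -0.26 after 5 halothane exposures and between 0.35 and 0.43 in the other 3 groups, and none of these passed. Rab33b, a Golgi Rab outside the release machinery, was above control by 0.24, 0.43, 0.39 and 0.49 in the 4 groups and by 0.39 for their mean (adjusted p of 0.436 from limma). Its second probe set was at -0.12 after 10 halothane exposures and -0.12 after 10 isoflurane exposures. Both values were identical before rounding, as when every array of both groups lies at the floor, so the floor sets their size.

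The agents could be compared with each other only at different concentrations, 0.8% halothane and 1.0% isoflurane. None of the 55 genes passed at either number of exposures (0.0135% and 0% of all probe sets after 5 and after 10), and at an unadjusted p under 0.05 there were 2 higher and 1 lower after 5 (2.98% of all probe sets) and 0 and 1 after 10 (3.11%). The median differences, halothane minus isoflurane, were 0.01 and 0.05. After 5 exposures the lowest p were those of Cplx1 at 0.39 (95% interval 0.07 to 0.71), Syt10 at 1.13 and Snap91 at -0.69. The value of Syt10 is set by the floor, since all 3 arrays of 5 isoflurane exposures lay below it, and it ran from 0.12 to 1.93 under other settings. After 10 exposures they were those of Vamp2 at -0.33 (95% interval -0.64 to -0.03), Rab3d at -0.44 and Rab3ip at -0.48, each with an adjusted p of 1 from limma.

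Neither did 10 against 5 exposures of 1 agent give a gene that passed (0.0135% of all probe sets for halothane, 0% for isoflurane). At an unadjusted p under 0.05 there were 1 higher and 2 lower genes for halothane (3.76% of all probe sets) and 1 and 1 for isoflurane (3%). For halothane, Rab3d was at -0.64 (95% interval -1.08 to -0.20) and Vamp2 at -0.40 (95% interval -0.70 to -0.09), and for these 2 of the 55 genes all 3 arrays of 10 exposures lay below all 3 of 5 exposures, which 4.78% of all probe sets did. Snap91 was at 0.67. For isoflurane, Rab3ip was at 0.57, Syt7 at -0.99 and Stx12, an endosomal syntaxin, at -0.33. The comparison of these changes between agents, the interaction of agent and exposure number, called none of the genes (0% of all probe sets), with 1 higher and 0 lower at an unadjusted p under 0.05 (2%). Its lowest p was that of Syt7, at 1.30 (95% interval 0.09 to 2.51; adjusted p of 1 from limma). These comparisons share exposed arrays with those against control and do not add to them.

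Genes of the vesicle cycle that the symbol rule leaves out, among them clathrin and its adaptors, the vesicular proton pump, synaptojanins, neurexins and calcium channels, gave no call either. Of 70 on the array 64 were tested, and none was called in any comparison with control. Their median difference was 0.02, -0.02, 0.04 and 0.01 in the 4 groups. The numbers above and below control were 35 and 29, 30 and 34, 44 and 20, and 34 and 30 in that order of groups. For the most uneven, after 5 isoflurane exposures, 31.2% lay below control, against 48.4% of all probe sets. The lowest p was that of Atp6ap1, an accessory subunit of the proton pump, at 0.30 after 10 isoflurane exposures (adjusted p of 0.302 from limma). All 3 arrays lay above every control there, as was so for 0.487% of all probe sets. How many of the 64 genes did so is not given here. After 10 halothane exposures Synj2, a synaptojanin, was at -0.40 (adjusted p of 0.390 from limma) and Scamp1, a secretory carrier protein, at 0.52.

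The same signals were also compared by the spike-in level of the array. With that level in the fit beside the groups, a comparison added after seeing the data, 11 of the 55 genes passed, 6 higher and 5 lower on the arrays with high spike-ins. That equals the background share, since 20% of all probe sets passed (7.67% higher and 12.3% lower). Snap25 was lower by 0.53 on the log2 scale: controls averaged 2360 ± 311 units on the 5 high arrays and 3246 ± 380 on the 7 low ones (SD; adjusted p of 2.15e-05 from limma). Syt1 was lower as well, with 110 ± 13.3 units on the 5 high and 187 ± 62.3 on the 7 low controls (adjusted p of 0.00125 from limma). Amph, Stxbp5, which holds syntaxin back from SNARE assembly, and Syt4 were also lower.

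Rab3a went the other way, with 1565 ± 252 units on the 5 high and 1105 ± 323 on the 7 low controls (SD; adjusted p of 0.00401 from limma), and so did Vamp1, Syn2, Rab34, Cplx2 and Syt8. Since 5 of the 12 controls and 1 of 3 arrays in each exposed group had high levels, every group held arrays of both levels. With the level as a block, the 95% interval of Snap25 after 10 halothane exposures was -0.28 to 0.18, against -0.42 to 0.41 without it. None of the 55 genes passed with the block, and the share of all probe sets that did is not given here. In that fit Rab3d after 10 halothane exposures had a difference of -0.64 with an adjusted p of 0.141, and Rab3ip after 10 isoflurane exposures one of 0.65 with an adjusted p of 0.213, both from limma. Restricted to low spike-in arrays, Rab3a differed from control by 0.04, -0.14, 0.14 and -0.23 in the 4 groups and by -0.05 for their mean. A fit with replicate number as a block put Rab3a lower, at -0.49 for that mean. The controls behind that value were numbers 1 to 3, of which 1 and 3 had high spike-ins. The part of the spike-in level in it was not tested.

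**Figure D4:**
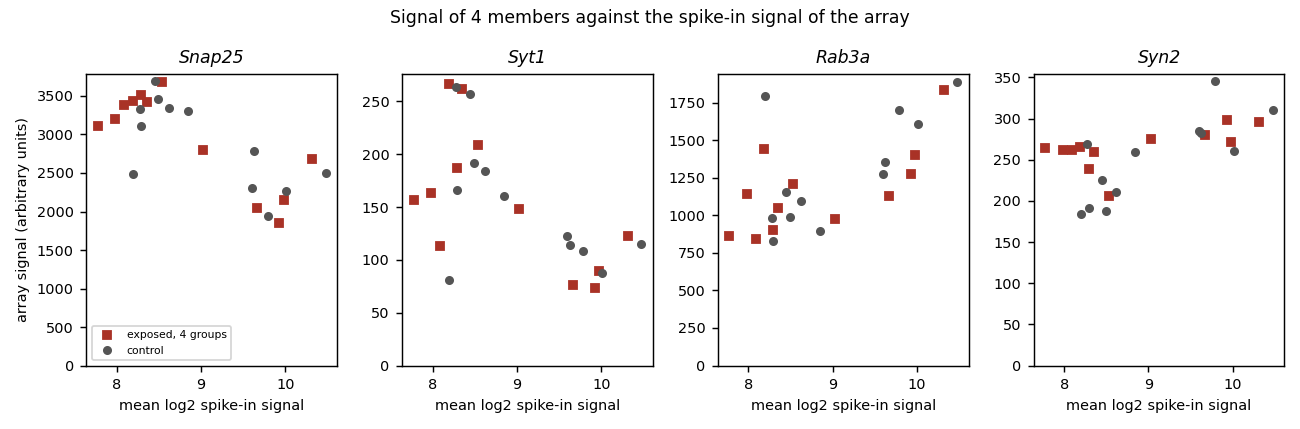
Array signal (y axis, arbitrary units, linear from 0) of Snap25, Syt1, Rab3a and Syn2 against the mean log2 spike-in signal of the array (x axis), with squares for the 12 exposed arrays and circles for the 12 controls. Snap25 and Syt1 lie lower and Rab3a and Syn2 higher on the 9 arrays with high spike-in levels.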

How the data were processed

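The authors deposited 1 intensity for every probe set on every array, not log-transformed. How they were summarised and scaled is not given here by any label, and the deposited scaling was kept. Groups came from sample titles and descriptions. Of 8799 probe sets, 59 control sets were left out, intensities under 16.5 were raised to it, log2 was taken, and 7389 probe sets above that floor on at least 3 arrays were tested. Symbols came from the platform annotation. All 55 genes were found by Entrez ID in a current rat gene table, and 0 symbols changed.

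Comparisons used limma 3.58.1 under R 4.3.3, with all 24 arrays in 5 groups, linear models with contrasts, moderated two-sided tests with the variance following intensity, and Benjamini-Hochberg adjustment across the 7389 probe sets. The code was tested on simulated data. Depth does not apply to arrays, whose number limits the precision.

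Same-numbered arrays were checked for pairing by the correlation of their deviations from group means, since the labels do not say that a number is shared. It was over 0.1 in 16 of 18 pairs between exposed groups, and in every pair of halothane 10 with isoflurane 10 and of isoflurane 10 with isoflurane 5, for which a replicate block changed no call of the 55 genes. In each exposed group replicate 3 had high and replicates 1 and 2 low spike-ins. Same-numbered arrays can therefore correlate without being paired, and the check cannot tell the 2 apart.

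The genes and lists were chosen with earlier results of these data known. Values on each array are given for the core release genes, and statistics for the 3 genes with the lowest p in each of 10 comparisons. The alternatives covered normalization, floor, filter, variance model, probe set, spike-in level, replicate number as a block, samples in the fit and single arrays.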

Additional observations from a re-analysis of the deposited data

How the results depend on the processing

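In each of the 10 comparisons, 0 of the 55 genes passed under every alternative run, 390 counts in all from 15 settings and 24 single arrays left out. The replicate block likewise gave 0. In the main fit at most 0.0406% of all probe sets passed in any comparison, so counts of 0 say little about these genes in particular. The shares of all probe sets under the alternatives are not given here. Between exposed and control arrays the replicate numbers were not taken as pairing, because r lay between -0.18 and 0.06 in all 8 pairs numbered 1 or 2, while the replicate 3 arrays, which all had high spike-ins, deviated together (r from 0.24 to 0.52). Controls 4 to 12 match no exposed array in number, so the block uses controls 1 to 3 alone. Of these, 1 and 3 had high spike-ins. In that fit Vamp2 was at -0.16, -0.56, -0.16 and -0.22 in the 4 groups and -0.28 for their mean. Rab3a was at -0.30, -0.60, -0.36, -0.71 and -0.49 in that order. Cplx2 was at 0.41 after 5 isoflurane exposures.

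The median difference of the 55 genes, close to 0 throughout, changed sign or moved by over 0.0470, the SD of the medians of the 12 control arrays, under some settings. On low spike-in arrays only, it was 0.0358 for halothane 10 minus control, 0.0584 for isoflurane 5 minus control, -0.0939 for halothane 5 minus isoflurane 5, 0.0254 for halothane 10 minus halothane 5 and 0.180 for the interaction. Array weights gave 0.0142 for halothane 10 minus halothane 5 and 0.0776 for the interaction. The cause was not tested.

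Leaving out single arrays gave medians from -0.0325 (without halothane 5 replicate 2) to 0.0803 (without its replicate 1) for halothane 5 minus control, and from -0.0890 to 0.0126 (without halothane 10 replicate 3) for halothane 10 minus control. For isoflurane 10 minus control they ran from -0.130 (without isoflurane 10 replicate 2) to 0.00815 (without its replicate 3). Between agents they ran from -0.0625 (without halothane 5 replicate 3) to 0.0481 (without its replicate 1) after 5 exposures and from -0.0314 (without isoflurane 10 replicate 3) to 0.0547 after 10. For 10 against 5 exposures they ran from -0.107 (without halothane 5 replicate 1) to 0.0795 (without its replicate 3) with halothane and from -0.109 to 0.00707 (without isoflurane 10 replicate 3) with isoflurane. For the interaction they ran from -0.0810 (without halothane 5 replicate 1) to 0.0666 (without isoflurane 5 replicate 3). A median this small has no settled direction in these comparisons.

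The other probe set had the opposite sign for Snap23 after 5 halothane exposures (0.318). For Rab33b it did so after 10 halothane exposures (-0.119), after 10 isoflurane exposures (-0.119) and for the mean of the 4 exposed groups (-0.0912). The Rab33b values after 10 exposures were identical, as when every array lies at the floor, so they measure no reversal. Of 23 further probe sets of 19 genes, 10 had the direction of the chosen one after 10 halothane exposures and 15 after 10 isoflurane exposures. Leaving out 1 array took Snap91 to -0.37 for halothane 5 minus isoflurane 5 and to 0.35 for halothane 10 minus halothane 5, Syt7 to -0.61 for isoflurane 10 minus isoflurane 5, and Rab3d and Rab3ip to -0.24 and -0.23 for halothane 10 minus isoflurane 10.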
